A study of Caenorhabditis elegans with 12 samples.

Results

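Cytochrome c oxidase, complex IV of the respiratory chain, was followed through 10 nuclear genes of *Caenorhabditis elegans*. They were taken from a list of names that includes the RNAi target *cox-5B* (also called *cco-1*). The list was not chosen by level or change, but earlier results of these data were known when it was made. All 10 were found by their WormBase identifiers among the 46920 loci of the count table, and all 10 were among the 14867 loci that passed the filter on low counts. Of these, 7 code for structural subunits (*cox-5B*, *cox-5A*, *cox-4*, *cox-6A*, *cox-6B*, *cox-6C* and *cox-7C*). The other 3, *cox-17*, *cox-10* and *cox-11*, code for assembly factors, so the name "complex IV subunits" fits only the first 7.

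RNA was sequenced from whole worms at the L4 larval stage, 3 libraries in each of 4 groups. The groups were the wild-type strain N2 (WT) and *lin-40*(*yth27*), which has a mutation in a subunit of the chromatin-remodelling complex NuRD, each kept from hatch at 20°C on empty vector (EV) bacteria or on *cco-1* RNAi bacteria. The methods of the study write the latter as EV+*cco-1*, while the library titles give only *cco-1*. Whether the worms were fed a mix of both bacteria is not stated there. Both genotypes are represented by 1 strain, and the worms of a library were lysed whole, so tissues are mixed. No label states that the libraries of a group came from separate cultures, and the p-values measure only the spread between these libraries.

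Complex IV takes electrons from cytochrome c and passes them to oxygen while it pumps protons across the inner mitochondrial membrane. Its catalytic core is made from subunits encoded by mitochondrial DNA, and the smaller nuclear-encoded subunits surround that core and are needed for its assembly and stability. In *C. elegans*, feeding of *cco-1* RNAi from hatch is a standard way to perturb mitochondria and extends life span. The comparison here asks whether the transcripts of the partner genes moved when the transcript of one subunit was reduced.

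Library totals ran from 18553449 to 22538076 expected counts. The scaling factors of the trimmed mean of M-values (TMM) were between 0.884 and 1.10 in 11 libraries and 0.796 in *lin-40* *cco-1* replicate 3, which stood apart from the rest. Markers of muscle, intestine, neurons, hypodermis and germ line, 4 genes each, all passed the filter. The summed level of 4 adult yolk and cuticle genes (*vit-2*, *vit-5*, *vit-6* and *col-19*) varied from 96.4 to 7123 CPM (counts per 1000000 counts of the scaled library).

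By the Ensembl annotation of assembly WBcel235, *cox-5B* lies on chromosome I from 9788725 to 9790050 on the plus strand, with 4 exon blocks and 826 bp of exons. *cox-7C* ends 14712 bp before it on the same strand, at 9773172 to 9774012, and 4 protein-coding genes lie between them. *cox-4* is on chromosome I, *cox-5A*, *cox-6A*, *cox-6B* and *cox-17* on chromosome III, *cox-6C* and *cox-11* on chromosome IV, and *cox-10* on chromosome II. The exons of *cox-6B* share 8 bp with those of the complex I gene *nduc-2* on the same strand. Counts that were not whole numbers occurred for *cox-6B* in 12 libraries and for *cox-11* in 8, so part of their reads had been divided between loci.

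The 7 structural genes were expressed far above the 3 assembly genes in WT worms on EV. On a scale of CPM per kilobase of exon, *cox-6B* stood at 1243 ± 32.2 (SD, n = 3), *cox-6C* at 989 ± 65.3, *cox-4* at 874 ± 43.0 and *cox-5A* at 839 ± 2.45. *cox-7C* followed at 615 ± 15.7, *cox-5B* at 599 ± 26.0 and *cox-6A* at 365 ± 9.19. The ranges of *cox-4* and *cox-5A* overlapped, as did those of *cox-7C* and *cox-5B*, and the other neighbours in this order did not overlap. Among the assembly genes the level per kilobase was 30.4 ± 2.46 for *cox-11*, 18.0 ± 3.85 for *cox-10* and 5.10 ± 0.644 for *cox-17*. *cox-17* rested on only 10 to 44 counts per library over the 12 libraries, against 2755 or more for *cox-5B*, and its changes were correspondingly uncertain.

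**Figure D1:**
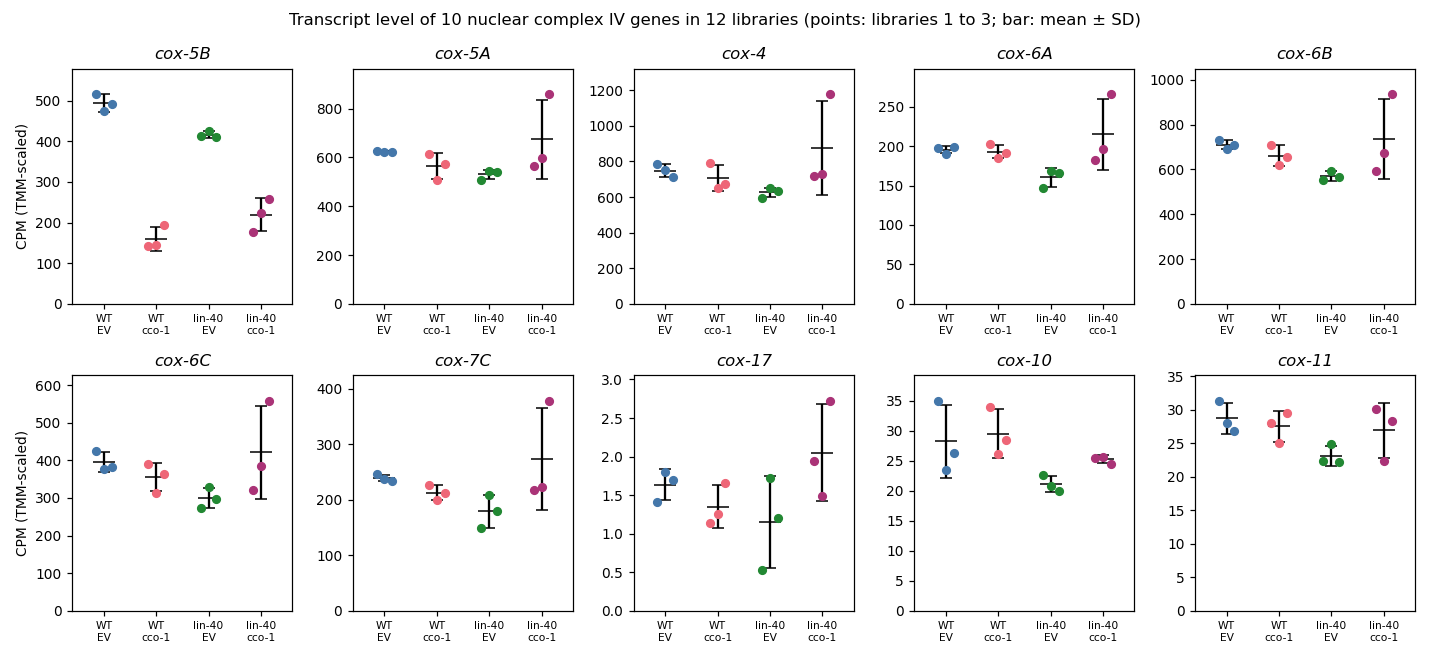
CPM scaled by TMM (vertical axes, from 0) of the 10 genes in the 4 groups, with 1 point per library and a bar for the mean ± SD. *cox-5B* is low in all 6 *cco-1* RNAi libraries, while the highest point of each structural partner is *lin-40* *cco-1* replicate 3.

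*cox-5B*, whose product is a zinc-binding subunit on the matrix side of the enzyme, checked the labels. In WT it stood at 517, 474 and 492 CPM on EV (replicates 1, 2 and 3) and at 143, 144 and 193 CPM on *cco-1* RNAi. In *lin-40* it stood at 413, 425 and 409 CPM on EV and at 177, 224 and 257 CPM on RNAi. No RNAi library reached the lowest EV library in either genotype, so the EV and RNAi labels held in all 12, while the genotype labels were not checked by these counts. Reads of the worm's own transcript and any reads of the RNAi construct are not separated in these counts.

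The target fell in both genotypes. The log2 fold change was −1.63 in WT (standard error, SE, 0.16, adjusted p = 3.76e-04), to 0.323 of its EV level, and −0.92 in *lin-40* (SE 0.16, adjusted p = 0.0187), to 0.527 of its EV level, by the quasi-likelihood test of edgeR with Benjamini-Hochberg (BH) adjustment over all genes tested. In whole worms, fewer cells of a type and less RNA per cell cannot be told apart. The WT call for *cox-5B* held without any 1 of the 12 libraries. The *lin-40* call for *cox-5B* was lost without EV replicate 1 (log2 fold change −0.93, adjusted p = 0.0739), EV replicate 2 (−0.91, 0.0933), EV replicate 3 (−0.93, 0.0991), *cco-1* replicate 1 (−0.77, 0.0587) or *cco-1* replicate 2 (−0.94, 0.0599), where fewer libraries entered the fit.

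The loss of *cox-5B* changed its place among the subunits. On RNAi its level per kilobase in WT was 194 ± 34.7 (SD, n = 3), below the 360 ± 15.98 of *cox-6A*, the lowest structural gene on EV. In *lin-40* on RNAi the values per kilobase were 265 ± 49.0 for *cox-5B* and 402 ± 83.7 for *cox-6A*. Its share of the summed counts per kilobase of the 7 structural genes was 10.8% ± 0.198 (SD, n = 3) in WT on EV and 4.11% ± 0.772 on RNAi. In *lin-40* the share was 11.3% ± 0.548 on EV and 4.78% ± 0.586 on RNAi. The ranges on EV and RNAi were far apart in both genotypes, and a share within a library does not depend on how libraries are scaled.

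In WT, none of the 6 structural partners passed the test when *cox-5B* was lost. *cox-4*, the subunit through which the mammalian enzyme senses ATP, stood at 783, 752 and 710 CPM on EV and at 790, 653 and 675 CPM on RNAi, and the groups overlapped. *cox-7C*, a small membrane-spanning subunit and the chromosomal neighbour of the target, stood at 246, 238 and 234 CPM on EV and at 227, 199 and 212 CPM on RNAi. Its RNAi libraries were all just below its EV libraries, but its log2 fold change of −0.17 (SE 0.20) was smaller than its error.

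The remaining structural partners showed the same picture in WT. *cox-5A*, on the matrix side beside the COX5B protein in the mammalian enzyme, ranged from 623 to 626 CPM on EV and from 509 to 612 CPM on RNAi, and its groups did not overlap. *cox-6A*, a membrane-spanning subunit at the contact face of the mammalian dimer, ranged from 190 to 199 CPM on EV and from 185 to 202 CPM on RNAi. *cox-6B*, which faces the intermembrane space, ranged from 693 to 730 CPM and from 618 to 711 CPM, and *cox-6C*, another small membrane-spanning subunit, from 378 to 425 CPM and from 314 to 390 CPM. In these 3 genes the groups overlapped.

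Over all 9 partners in WT, 0 passed the adjusted threshold in edgeR, 0 had an unadjusted p under 0.05 and 0 passed in DESeq2. Of all genes tested, edgeR called 6.25%, 20.8% had an unadjusted p under 0.05 and DESeq2 called 9.79%. The groups did not overlap, with RNAi lower, for 2 of the 9 (*cox-5A* and *cox-7C*), against 13.3% of all genes. The log2 fold changes of the 6 structural partners lay between −0.17 and −0.02 with a median of −0.13, which became 0.0054 with scaling by library totals. That scaling moved the median of all genes from 0.06 to 0.19, so relative to all genes the partners were at −0.19 under both. With WT libraries paired by replicate number, RNAi was lower in all 3 pairs for 5 of the 9 (*cox-5A*, *cox-6B*, *cox-6C*, *cox-7C* and *cox-17*), against 24.7% of all genes. It was lower in 2 of 3 pairs for *cox-4* and *cox-6A*. By counts per library total, RNAi was lower in all 3 pairs for 0 of the 9, and the share of all genes on that scale was not computed. The fit with that block called 0 of the 6 structural partners. The 95% intervals of the 6 together reached from −0.61 to 0.31, or from 0.657 to 1.24 of the EV level, and smaller changes of a single partner were not detectable here.

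The summed level of the 4 hypodermis markers (*dpy-7*, *rol-6*, *sqt-3* and *bli-1*) was lower on *cco-1* RNAi in WT. It was 2816 to 3501 CPM on EV and 1664 to 2276 CPM on RNAi, and only *dpy-7* passed the test, as lower. Muscle markers summed to 8632 to 14580 CPM on EV and 7685 to 10760 CPM on RNAi, with 1 of 4 called lower. Of all genes tested, edgeR called 4.08% lower in this comparison. Neuron markers summed to 175 to 186.2 CPM on EV and 186.6 to 214 CPM on RNAi, with 0 of 4 called. The part of these markers in the values of the complex IV genes was not tested.

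Among the assembly factors in WT, *cox-17*, a copper chaperone of the intermembrane space, stood at 1.41, 1.81 and 1.70 CPM on EV and at 1.14, 1.25 and 1.66 CPM on RNAi. Its log2 fold change was −0.28 with a 95% interval from −1.14 to 0.59, the widest of the 10. *cox-11*, which in yeast delivers copper to the catalytic subunit, had a log2 fold change of −0.06 (interval −0.35 to 0.23). *cox-10*, the farnesyltransferase that makes heme O on the way to the heme A of the enzyme, had 0.07 (interval −0.27 to 0.40). The EV and RNAi groups overlapped for all 3.

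**Figure D2:**
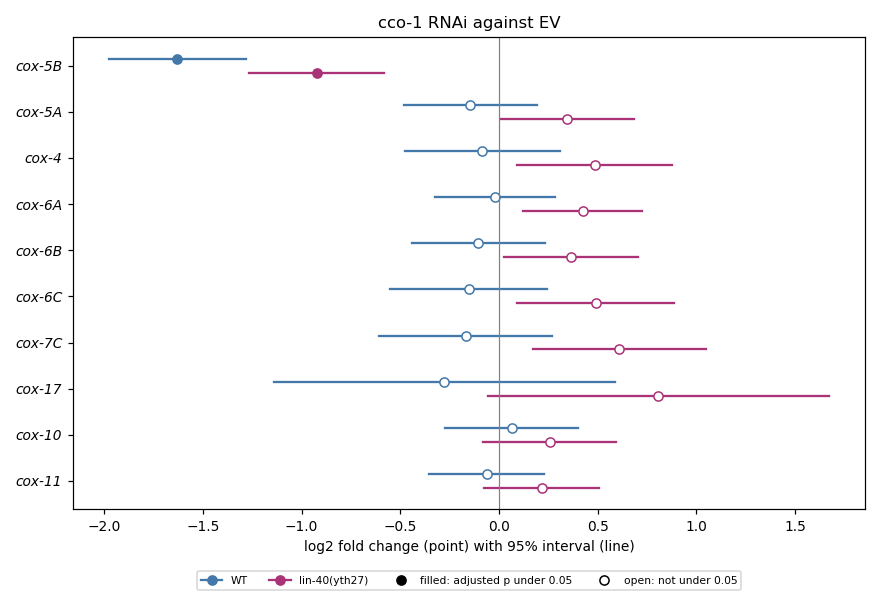
Log2 fold change on *cco-1* RNAi against EV (horizontal axis) with its 95% interval for the 10 genes in WT and *lin-40*(*yth27*), with filled points for an adjusted p under 0.05. Only *cox-5B* is filled, at −1.63 and −0.92, and the 9 partners lie near 0 in WT and right of 0 in *lin-40*.

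In *lin-40* the same 9 partners stood higher on *cco-1* RNAi than on EV, and none passed the adjusted threshold. *cox-4* stood at 596, 649 and 634 CPM on EV and at 719, 730 and 1180 CPM on RNAi. *cox-7C* stood at 148, 208 and 180 CPM on EV and at 217, 224 and 378 CPM on RNAi. On this TMM scale every RNAi library was above every EV library for both genes, and RNAi replicate 3 was far above the other RNAi libraries.

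The log2 fold changes in *lin-40* were 0.35 for *cox-5A* (SE 0.15), 0.48 for *cox-4* (SE 0.18), 0.42 for *cox-6A* (SE 0.14), 0.36 for *cox-6B* (SE 0.15), 0.49 for *cox-6C* (SE 0.18) and 0.61 for *cox-7C* (SE 0.20). The adjusted p values in edgeR's quasi-likelihood fit after BH adjustment were from 0.241 to 0.407. Of the 9 partners, 0 passed in edgeR and 0 in DESeq2, and 6, all of them structural, had an unadjusted p under 0.05 with RNAi higher. Over all genes, edgeR called 1.16% and DESeq2 2.66% at the adjusted threshold, and 7.24% had an unadjusted p under 0.05 with RNAi higher. After TMM the groups did not overlap, with RNAi higher, for 5 of the 9 (*cox-5A*, *cox-4*, *cox-6A*, *cox-7C* and *cox-10*), against 11.1% of all genes. Which genes these were depended on the scaling. By counts per library total the groups of *cox-5A*, *cox-7C* and *cox-10* overlapped, while those of *cox-4*, *cox-6A*, *cox-6B* and *cox-6C* did not. The share of all genes on that scale was not computed.

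This upward position leaned on 1 library. *lin-40* *cco-1* replicate 3 was the highest of the 12 libraries for all 6 structural partners, both after TMM and as counts per total. Without *lin-40* *cco-1* replicate 3 the median log2 fold change of the 6 went from 0.45 to 0.23, with values between 0.14 and 0.31. With scaling by library totals the median was 0.27, with values between 0.16 and 0.41, while the median of all genes moved from −0.03 to −0.18. The adult yolk and cuticle genes summed to 5637 to 7123 CPM in *lin-40* on EV and 725 to 2336 CPM on RNAi (edgeR adjusted p from 0.275 to 0.802), and their part in these values was not tested.

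Among the assembly factors in *lin-40*, *cox-10* stood at 22.6, 20.8 and 19.9 CPM on EV and at 25.5, 25.7 and 24.5 CPM on RNAi. After TMM its groups did not overlap, with a log2 fold change of 0.26 (95% interval −0.08 to 0.60). RNAi replicate 3 was the lowest of its RNAi libraries, with 386 counts against 429 to 496 on EV. By counts per library total that library lay below every EV library, so the separation of the groups depended on its scaling. The log2 fold change of *cox-10* was 0.22 to 0.31 with 1 library left out, and at lowest 0.11 over all alternatives. *cox-11* had 0.22 (interval −0.07 to 0.51). *cox-17* had 0.81 (interval −0.06 to 1.67), from 0.527 to 1.72 CPM on EV and from 1.48 to 2.73 CPM on RNAi, and its groups overlapped.

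**Figure D3:**
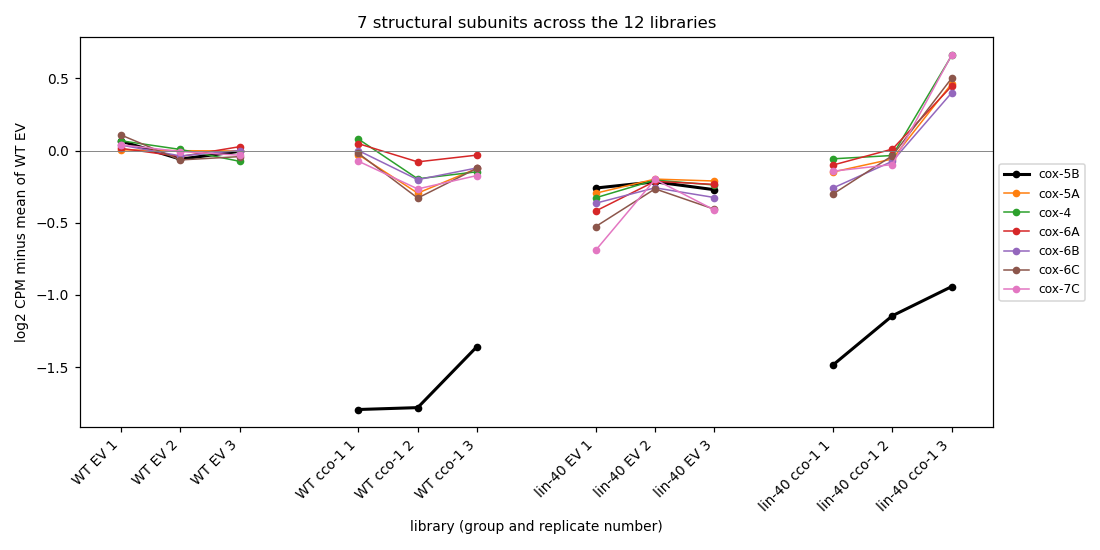
Log2 CPM of the 7 structural genes in each library (horizontal axis, by group and replicate number), as the difference from the mean of WT on EV. Lines join the values of 1 gene within a group and mark no order. The 6 partners stay together in every library and peak in *lin-40* *cco-1* replicate 3, while *cox-5B* lies far below them on RNAi.

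The change on RNAi was then compared between the genotypes. The difference (*lin-40* minus WT, log2) was 0.71 for *cox-5B* (SE 0.22), with an adjusted p of 0.394 (0.00768 unadjusted) in edgeR's quasi-likelihood fit after BH adjustment, so a smaller loss of the target in *lin-40* was not established. With scaling by library totals this difference was 0.39 (adjusted p = 0.488 in edgeR). For the structural partners it lay between 0.44 (*cox-6A*) and 0.78 (*cox-7C*), with a median of 0.53. For the assembly factors it was 1.09 (*cox-17*), 0.28 (*cox-11*) and 0.19 (*cox-10*). None of the 10 passed, 0.0% of all genes passed in edgeR and 0.390% in DESeq2. At an unadjusted p under 0.05 there were 5 of the 9 partners with the difference above 0, against 6.84% of all genes. Without *lin-40* *cco-1* replicate 3 the median of the structural partners was 0.27, and with library totals it was 0.21.

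Ratios within a library do not depend on its scaling. The level of *cox-5B* per kilobase was divided by the geometric mean of the 6 structural partners. In WT the ratio was 0.792, 0.762 and 0.790 on EV and 0.225, 0.266 and 0.331 on RNAi. In *lin-40* it was 0.883, 0.785 and 0.799 on EV and 0.314, 0.366 and 0.283 on RNAi. The EV and RNAi libraries were well apart in both genotypes, and the RNAi libraries of the 2 genotypes overlapped.

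The log2 change of this ratio was −1.53 in WT (SE 0.16) and −1.36 in *lin-40* (SE 0.12). The genotypes differed by 0.16 with an SE of 0.20, which is within the error. The TMM-scaled change of *cox-5B* differed by 0.71 and those of the 6 structural partners by a median of 0.53. Division by the partners takes out their difference along with the scaling, and a ratio does not tell which transcript moved. Without *lin-40* *cco-1* replicate 3 the change of the ratio in *lin-40* was −1.28. Relative to its partners, the target was thus reduced to 0.347 of its EV ratio in WT and to 0.388 in *lin-40*. Ratios of each partner to the other five moved little on RNAi, by −0.07 (*cox-7C*) to 0.11 (*cox-6A*) in WT and by −0.12 (*cox-5A*) to 0.18 (*cox-7C*) in *lin-40* on the log2 scale.

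**Figure D4:**
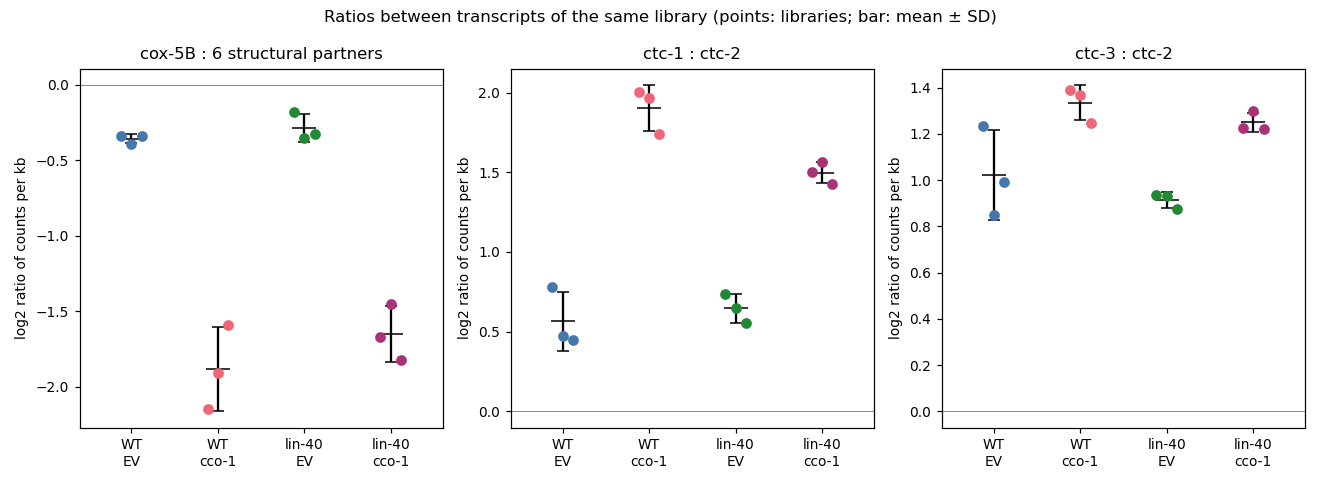
Log2 ratios of counts per kilobase within each library (vertical axes) in the 4 groups, with 1 point per library and a bar for the mean ± SD. *cox-5B* against its 6 structural partners is low on RNAi in both genotypes, and *ctc-1* against *ctc-2* and *ctc-3* against *ctc-2* are high on RNAi in both.

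On EV, the mutant was compared with WT. All 10 genes stood lower in *lin-40*, with log2 fold changes from −0.23 (*cox-5A*) to −0.50 (*cox-17*) and −0.25 for *cox-5B*, and 0 of the 10 passed the adjusted threshold in edgeR, where 0.377% of all genes did. DESeq2 called 0 of the 9 partners and 3.07% of all genes. *cox-10* and *cox-11* had an unadjusted p under 0.05, as had 7.43% of all genes with *lin-40* lower. After TMM the *lin-40* libraries were all below the WT libraries for 8 of the 9 partners, all but *cox-17*, and for *cox-5B*, against 13.1% of all genes. By counts per library total the groups of *cox-5A*, *cox-6A*, *cox-7C* and *cox-11* overlapped as well. Those of *cox-4*, *cox-6B*, *cox-6C*, *cox-10* and *cox-5B* stayed apart, and the share of all genes on that scale was not computed. The median of the 6 structural partners was −0.30, and −0.17 with scaling by library totals, which moved the median of all genes from 0.03 to 0.16. The adult yolk and cuticle genes summed to 538 to 3371 CPM in WT on EV and to 5637 to 7123 CPM in *lin-40* (edgeR adjusted p from 0.427 to 0.504), and their part in this difference was not tested. Intestine markers summed to 3229 to 4490 CPM in WT on EV and to 2549 to 2931 CPM in *lin-40* (median log2 fold change −0.28), and hypodermis markers to 2816 to 3501 CPM and to 2510 to 2583 CPM (−0.48). Neither pair of ranges overlapped, 0 of 4 genes of each list passed, and their part was not tested either.

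On *cco-1* RNAi the 7 structural genes did not stand lower in *lin-40*. *cox-5B* had a log2 fold change of 0.46 against WT (SE 0.16, adjusted p = 0.218 in edgeR's quasi-likelihood fit after BH adjustment). The structural partners lay between 0.15 (*cox-6B*) and 0.36 (*cox-7C*), with a median of 0.25 that became −0.02 without *lin-40* *cco-1* replicate 3 and 0.07 with library totals. *cox-10* was at −0.23, and its *lin-40* libraries (24.5 to 25.7 CPM) were all below its WT libraries (26.1 to 34.01 CPM). It was the 1 gene of the 9 whose groups did not overlap with *lin-40* lower, against 7.34% of all genes. *cox-11* was at −0.03. None of the 10 passed in edgeR, where 0.626% of all genes did. Of the 9 partners, 0 had an unadjusted p under 0.05, against 15.6% of all genes, and 0 passed in DESeq2, against 2.70%. Both genotype comparisons share their libraries with the RNAi comparisons above.

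**Figure D5:**
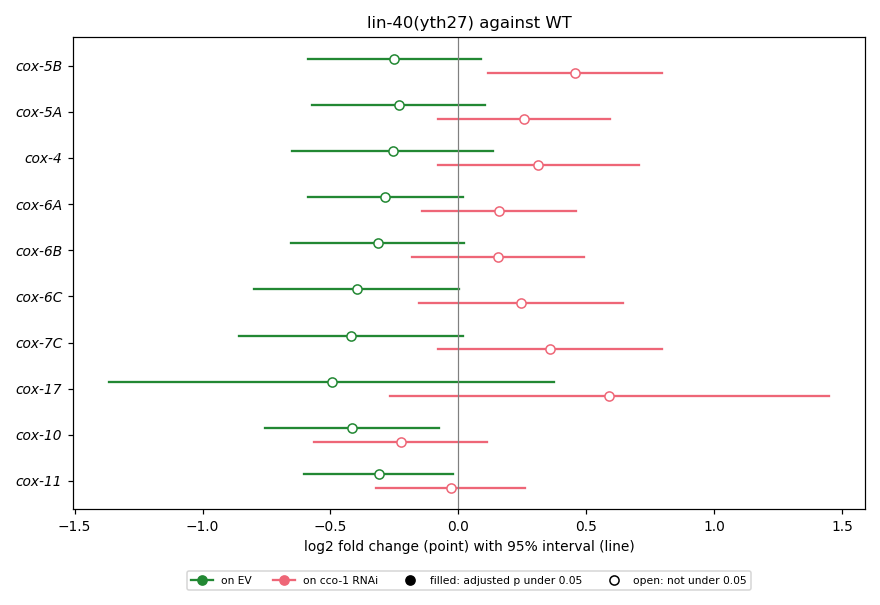
Log2 fold change of *lin-40*(*yth27*) against WT (horizontal axis) with its 95% interval for the 10 genes on EV and on *cco-1* RNAi, with filled points for an adjusted p under 0.05. All points are open, those on EV all lie left of 0, and 8 of the 10 on RNAi lie right of 0.

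The structural partners varied together from library to library. Over the 12 libraries, the 15 pairs of the 6 partners had Pearson correlations of log2 CPM between 0.915 and 0.985, with a median of 0.951. *cox-5B* had correlations between −0.25 and 0.05 with them. With the group means removed, the correlations of *cox-5B* with its partners were 0.474 to 0.687, so within groups *cox-5B* varied with its partners. These points share the scaling of each library, including the low factor of *lin-40* *cco-1* replicate 3, and the values are a description.

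The 5 genes outside the list that were most like the mean of the 6 partners over the 12 libraries were *atp-4* (r = 0.994), *F23H11.5* (0.982), *Y82E9BR.3* (0.980), *Y51H1A.3* (0.977) and *R53.4* (0.975). Of these, 3 (*Y82E9BR.3*, *Y51H1A.3* and *R53.4*) belong to a list of 66 other nuclear genes of oxidative phosphorylation. That list was taken from genes the study displayed for these same samples and is not independent evidence of a direction. *atp-4* codes for a subunit of the ATP synthase.

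The other nuclear oxidative phosphorylation genes took similar values to the structural partners. Of the 65 tested, 0 passed in edgeR in any of the 5 comparisons. In WT on RNAi their median log2 fold change was −0.11, with 1 at an unadjusted p under 0.05 (lower, as were 11.7% of all genes), 0 called by DESeq2 (9.79% of all genes) and 1 called with WT libraries paired by replicate number (8.40%). In *lin-40* on RNAi the median was 0.34, with 39 at an unadjusted p under 0.05 (all higher, against 7.24% of all genes) and 0 called by DESeq2 (2.66%), and it was 0.20 without *lin-40* *cco-1* replicate 3. In *lin-40* against WT on EV the median was −0.29, with 22 at an unadjusted p under 0.05 (all lower, against 7.43% of all genes) and 1 called by DESeq2 (3.07%). The structural partners had medians of −0.13, 0.45 and −0.30 in these 3 comparisons, and all genes tested 0.06, −0.03 and 0.03.

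The mitochondrially encoded subunits did not move as 1 group. *ctc-1* codes for the catalytic subunit that holds the hemes, *ctc-2* for the subunit that receives electrons from cytochrome c, and *ctc-3* for a core subunit without metal. The libraries were made from RNA bound to oligo(dT), so these values are of polyadenylated mitochondrial RNA. *ctc-1* stood at 3293, 2589 and 2206 CPM in WT on EV and at 5148, 3934 and 4596 CPM on RNAi. *ctc-2* stood at 838, 816 and 708 CPM on EV and at 560, 439 and 601 CPM on RNAi. The groups did not overlap for either gene, *ctc-1* with RNAi higher and *ctc-2* with RNAi lower.

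In *lin-40*, *ctc-1* stood at 2307, 2101 and 2140 CPM on EV and at 4036, 4784 and 6662 CPM on RNAi, and rose with a log2 fold change of 1.24 (SE 0.21, adjusted p = 0.0187 in edgeR's quasi-likelihood fit after BH adjustment). The call for *ctc-1* was lost without *lin-40* EV replicate 1 (1.28, adjusted p = 0.0772), EV replicate 2 (1.22, 0.1004), EV replicate 3 (1.23, 0.108) or *cco-1* replicate 3 (1.02, 0.0548). In WT the log2 fold change of *ctc-1* was 0.76 (SE 0.21, adjusted p = 0.0529), which just missed the threshold. It passed under 8 of 21 alternatives. These were scaling by library totals (0.90, adjusted p = 0.00173 in edgeR), the filter of 10 CPM (0.79, 0.0275), DESeq2 (0.75, 0.0110) and the block by short-name number (0.77, 0.0116). It also passed, at 0.77 (adjusted p = 0.0391), in the fit with the replicate number as a block, and also without WT EV replicate 1 (0.93, adjusted p = 0.0418), *lin-40* *cco-1* replicate 1 (0.74, 0.0406) or *lin-40* *cco-1* replicate 3 (0.77, 0.0267). *ctc-2* had −0.56 in WT (SE 0.19, adjusted p = 0.119, or −0.54 with adjusted p = 0.0394 without *lin-40* *cco-1* replicate 3) and 0.40 in *lin-40* (SE 0.19, adjusted p = 0.459), and *ctc-3* had −0.27 (SE 0.21, adjusted p = 0.513) and 0.73 (SE 0.21, adjusted p = 0.157). *ctc-2* in WT and *ctc-3* in *lin-40* each passed under 2 of 21 alternatives. Of these 3 genes, edgeR called 0 in WT and 1 in *lin-40*, where it called 6.25% and 1.16% of all genes.

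Within libraries, the ratio of *ctc-1* to *ctc-2* per kilobase was 1.36 to 1.72 in WT on EV and 3.34 to 4.02 on RNAi, a 2.53-fold higher mean. In *lin-40* it was 1.47 to 1.66 on EV and 2.69 to 2.95 on RNAi, a 1.81-fold higher mean. The ratio of *ctc-1* to *ctc-3* was 2.04-fold higher on RNAi in WT and 1.43-fold higher in *lin-40*, and that of *ctc-3* to *ctc-2* was 1.24-fold and 1.26-fold higher. The EV and RNAi libraries were apart in all of these. No test is given, since an exact two-sided permutation test of 3 against 3 libraries cannot go below p = 0.10. A ratio shows unequal change only and does not tell which transcript moved.

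Outside the 10 genes, 11 of 12 other genes of complex IV biogenesis and cytochrome c were tested. *cchl-1*, the cytochrome c heme lyase, stood at 151, 141 and 136 CPM in WT on EV and at 211, 183 and 189 CPM on RNAi. It rose in WT (log2 fold change 0.45, SE 0.12, adjusted p = 0.0435) and in *lin-40* (0.68, SE 0.12, adjusted p = 0.0200) in edgeR's quasi-likelihood fit after BH adjustment. *cox-15*, which makes heme A from the product of *cox-10*, rose in *lin-40* (0.70, SE 0.14, adjusted p = 0.0330), and had 0.43 in WT (SE 0.14, adjusted p = 0.0918). The other 9 passed in neither genotype. Of the 11, edgeR thus called 1 in WT and 2 in *lin-40*, where it called 6.25% and 1.16% of all genes.

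These calls were close to the threshold. *cchl-1* passed under 6 of 21 alternatives in WT and 15 of 21 in *lin-40*. *cox-15* passed under 3 of 21 in WT and 10 of 21 in *lin-40*, the latter with 8 of the 9 that kept all libraries and not with scaling by library totals (0.54, adjusted p = 0.0896 in edgeR). When each of the 12 libraries was left out in turn, *cchl-1* passed in WT only without *lin-40* *cco-1* replicate 3 (adjusted p from 0.0258 to 0.166 over the 12, log2 fold change from 0.39 to 0.49). In *lin-40* it was lost without *lin-40* EV replicate 1, 2 or 3 or *cco-1* replicate 1 or 3 (adjusted p up to 0.108, log2 fold change from 0.58 to 0.75). *cox-15* in *lin-40* passed only when replicate 1 of WT on EV or on *cco-1* RNAi was the one removed (adjusted p from 0.0258 to 0.148, log2 fold change from 0.63 to 0.77).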

How the data were processed

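Reads were made from oligo(dT)-selected RNA of whole L4 worms and sequenced as paired ends. Per the labels, the authors used TopHat and RSEM. The values they deposited were taken to be RSEM's expected counts, not normalized, because they are mostly whole numbers with unequal totals. Genome build, annotation and RSEM version: not given in the sources used here. 0 columns belonged to other samples, and no row lacked a locus name.

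Expected counts were rounded, filtered with filterByExpr, scaled by TMM and fitted with edgeR 4.0.16 (quasi-likelihood, 4 groups, 12 libraries) in R 4.3.3 with limma 3.58.1. Calls needed a BH-adjusted p under 0.05 over all genes tested. Standard errors were the fold change over the root of its F statistic, and 95% intervals used the t distribution. The procedure was tested on counts simulated from the spread fitted to these data, with changes set in 200 genes. Those changes were larger than any of the structural partners, so the simulation gives no detection rate for changes of their size. Figures were drawn with matplotlib 3.10.9. Levels per kilobase used exon lengths of Ensembl release 115. Library totals were 18553449 to 22538076, and counting error alone is smaller than the spread between replicates, whose chi-square per degree of freedom was 4.24 to 97.5.

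Named genes were all 10 members, the mitochondrially encoded subunits, the biogenesis genes with a call, and the 5 genes most correlated with the structural partners. Members and lists were chosen with earlier results of these data known. No sequences were printed.

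Same-numbered EV and *cco-1* libraries were checked for shared deviations from their group means. By title number, WT had correlations of 0.722, 0.588 and 0.288, and *lin-40* had −0.324, −0.192 and −0.113. Libraries of unlike number were not compared and no label states a pairing, so a pairing of the WT libraries is possible but not established. Alternatives were other scalings (median of ratios, upper quartile, library totals), other filters (at least 1 count, or 10 CPM in 3 libraries), DESeq2 1.42.0, fits on the groups compared alone, replicate blocks by title or short-name number, and each library left out in turn.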

Additional observations from a re-analysis of the deposited data

How the results depend on the processing

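*cox-5B* fell in both genotypes under every alternative run, with log2 fold changes between −1.79 and −1.49 (WT) or −1.10 and −0.77 (*lin-40*). It passed the threshold in WT under all 21 alternatives and in *lin-40* under 16. The call was lost in 5 of the 6 fits that left out 1 *lin-40* library (values −0.94 to −0.77 there) and held without *lin-40* *cco-1* replicate 3. With 1 library left out, the *lin-40* values of *cox-5B* lay between −1.04 and −0.77. The partners passed in 4 of 931 fits of 1 gene under 1 alternative, all with the replicate block by short-name number, which gave 2 partners (*cox-6C* and *cox-7C*) for *lin-40* on RNAi and 2 (the same genes) for the difference between the genotypes. It called 2.52% and 6.88% of all genes in these comparisons. Under that block the difference for *cox-5B* was 0.87 (adjusted p = 0.0390 by edgeR). The short-name numbers share 2 pairs within *lin-40*, with correlations of 0.290 and −0.113, so they do not establish a pairing, and the cause of the shift was not tested. The replicate block by title number, which treats same-numbered WT libraries as pairs, changed no call of the 10 genes: it gave −0.13 as the WT median of the 6 structural partners. Scaling by library totals moved that median to 0.0054 in WT and to −0.17 for *lin-40* against WT on EV.

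A value of a partner took the other sign in 18 of those 931 fits, none of them past the threshold: 8 in WT on RNAi, 8 for *lin-40* against WT on RNAi and 2 for the difference between the genotypes. With 1 library left out, the median of the structural partners ran from −0.19 to −0.08 in WT on RNAi, from 0.23 to 0.59 in *lin-40* on RNAi, from −0.34 to −0.26 for the genotypes on EV and from −0.02 to 0.40 on RNAi. *cox-17* had no value under the filter of 10 CPM, and the difference between the genotypes has no fit on 2 groups alone. Depth limits *cox-17* most, and 3 libraries per group limit all partners to the intervals given.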
